A study of Mus musculus with 9 samples.

Results

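One intranasal dose of fine particulate matter (PM2.5) was compared with PBS in whole mouse lung, across 13615 of the 18875 genes in the deposited expression table. These were the genes with a TPM of 1 or more (transcript abundance scaled to a fixed total per library) in at least 3 of the 6 libraries compared. The 3 PM2.5 libraries are labelled short-term exposure and came from wild-type BALB/c mice given PM2.5 at 10 mg/kg into the nose 1 time. The 3 control libraries came from wild-type BALB/c lung labelled as long-term exposure to PBS. No PBS library is labelled short-term, so the exposure schedule cannot be told apart from the agent. Another 3 libraries, labelled long-term exposure, received the same PM2.5 dose 6 times, 3 days apart, and are used only to compare 1 dose with 6. The sources used here give neither the age of the mice nor the time from instillation to collection. The labels do not state that replicates were different animals, and the spread behind each p-value may therefore be technical.

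PM2.5 is the fraction of airborne particles small enough to reach the alveoli, and it carries metals, aromatic hydrocarbons and bacterial products on its surface. In the lung, macrophages and epithelial cells that meet such particles release cytokines and chemokines, which draw neutrophils and then monocytes from the blood. Il6 and Il1b also switch on acute phase genes, whose products bind bacteria, iron and lipids. Metals displace zinc and induce metallothioneins, electrophiles release the transcription factor Nrf2 (gene Nfe2l2) from its inhibitor Keap1, and aromatic hydrocarbons bind the aryl hydrocarbon receptor, which induces Cyp1 enzymes.

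The short-term libraries differed from the others in how values ran with transcript length. Over 10 groups of genes of rising length, their median log2(TPM + 1) relative to PBS fell by 1.73, 0.855 and 1.07 from the shortest group to the longest in replicates 1, 2 and 3. The same difference lay between -0.0588 and 0.0439 in the PBS libraries and between -0.214 and -0.144 after 6 doses. The number of genes reaching 1 TPM was smallest in short-term replicate 1, at 12560, where PBS libraries had 13534 to 13615. The library and the treatment cannot be told apart in this design. Each change is therefore given after removal, library by library, of the trend with length and GC and of the mean difference (the corrected fit). It is given again from the values as deposited. All 6 libraries held the defining transcripts of lung, with the lowest Sftpc value at 19628 TPM, the lowest Scgb1a1 at 106890 TPM and the lowest Ager at 4630 TPM.

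**Figure D1:**
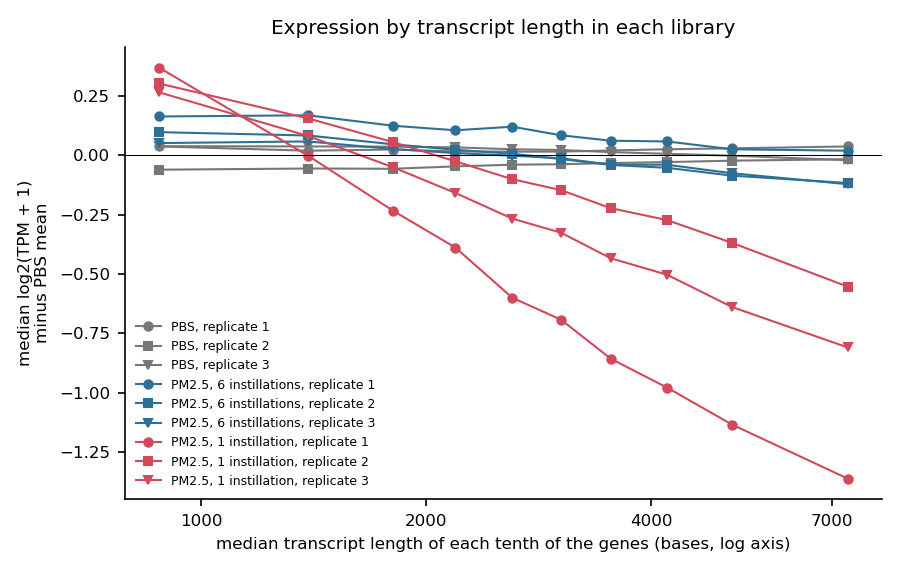
Median difference of log2(TPM + 1) from the PBS mean (y) in each of 10 groups of genes by transcript length (x, bases, log axis), 1 line for each of the 9 libraries. The 3 short-term lines descend by 1.73, 0.855 and 1.07, and the PBS and 6-dose lines stay nearly level.

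In the corrected fit 2827 of 13449 genes with a known transcript length were higher after 1 dose (21.0%) and 3115 were lower (23.2%), at a Benjamini-Hochberg adjusted p under 0.05 in limma. As deposited, 1260 genes were higher (9.25%) and 4273 were lower (31.4%) of 13615, and the median change of all genes was -0.35 on the log2 scale against -0.02 after correction. The share of lower genes among all calls was 77.2% as deposited and 52.4% after correction. The correction also removes each library's mean difference, so this median and the balance of calls are largely set by that step. With the mean of each library kept, the corrected median was -0.335 and 84% of calls were lower. Both fits called 999 genes higher (7.43%) and 2431 lower (18.1%), and 23 genes were called in opposite directions. A change of at least 1 on the log2 scale in both fits was seen in 302 of the higher genes (2.25%) and 335 of the lower (2.49%). A gene is said below to have risen or fallen only where it passed in both fits, and "did not pass" refers to the corrected fit. Counts of risen or fallen genes in any list are to be read against the 7.43% and 18.1% of all genes. Changes are given on the scale of log2(TPM + 1) in the corrected fit, with the standard error (SE) over 3 libraries against 3, unless another scale is named.

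**Figure D2:**
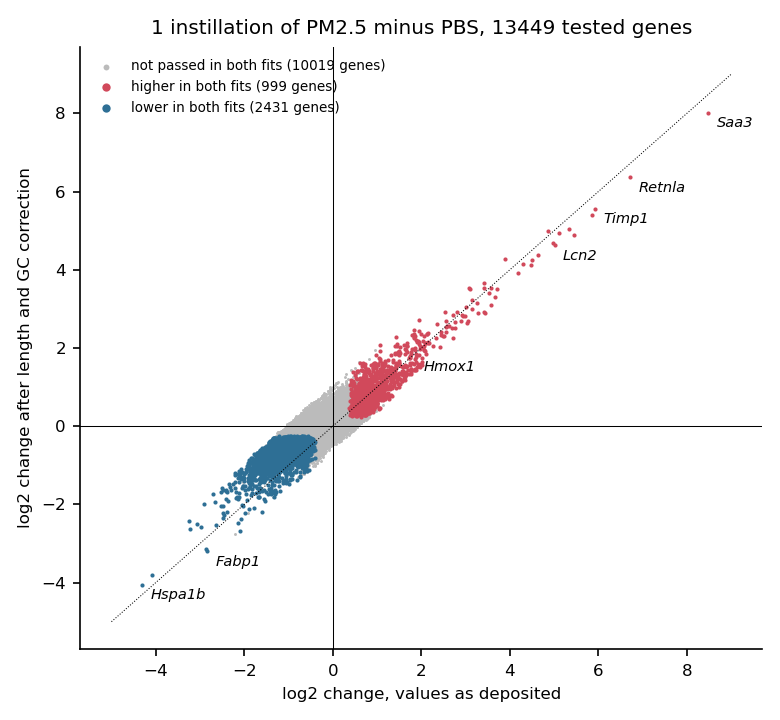
Change after 1 dose in 13449 genes, with the log2 change as deposited on x and the corrected log2 change on y. Red points are the 999 genes higher in both fits, blue the 2431 lower in both, and grey the rest; the largest increases lie near the dotted line of equality.

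**Figure D3:**
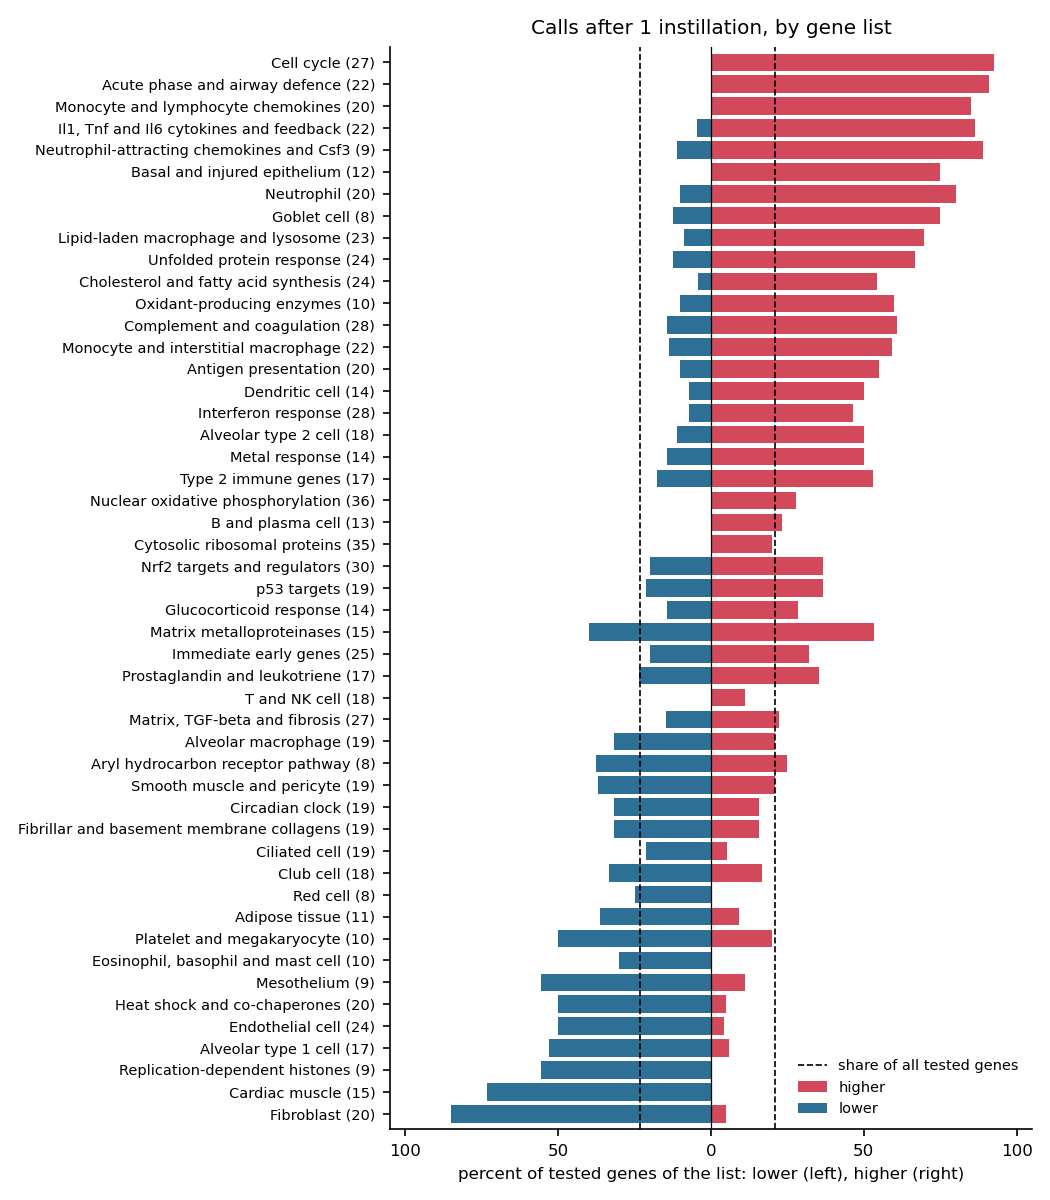
Share of the tested genes of each list that were higher (red, right) or lower (blue, left) in the corrected fit, with the number tested in parentheses. Dashed lines mark the share over all tested genes, 21.0% higher and 23.2% lower; acute phase, chemokine and cell cycle lists reach far past the right line and fibroblast and cardiac lists past the left one.

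Acute phase genes were among the largest increases. Saa3, a serum amyloid A that mouse lung and macrophages make locally, stood at 14.7, 28.7 and 23.9 TPM in PBS and at 11073, 7458 and 6515 TPM after 1 dose. That was a change of 8.02 ± 0.24 (SE; adjusted p = 2.96e-07, limma), the largest of any gene that met the rule for naming. Each dosed library lay far above every PBS library. Lcn2, which withholds iron from bacteria by binding their siderophores, went from 184, 366 and 272 TPM to 8878, 7789 and 9001 TPM, a change of 4.64 ± 0.23 (adjusted p = 4.50e-06). Serpina3n, a secreted serine protease inhibitor, went from 14.4, 13.97 and 15.6 TPM to 367, 503 and 521 TPM (5.0 ± 0.10, adjusted p = 2.02e-08). The groups did not overlap for these genes, which the rule that chose the largest changes required. As deposited, the dosed libraries lay wholly above PBS in 14.6% of 13615 genes and wholly below it in 46.1%.

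Several acute phase genes better known from liver were close to absent in PBS lung. Saa1 was listed at 0, 0.41 and 0.42 TPM in PBS and at 87.9, 68.4 and 62.4 TPM after the dose (5.41 ± 0.16, adjusted p = 2.96e-07). Orm1 and Orm2, which encode lipid-binding orosomucoids, averaged 1.66 and 0.22 TPM in PBS and 83.5 and 49.1 TPM after the dose. Hpx, the plasma carrier of free haem, rose from a range of 1.16 to 1.71 TPM to one of 23.3 to 29.6 TPM. Saa1 with Saa2, and Orm1 with Orm2, are near-identical copies, so the split of reads within each pair is uncertain.

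Of 22 tested acute phase and airway defence genes, 20 were higher in the corrected fit and 18 rose in both fits, with 0 lower, where 7.43% of all genes rose. The median change of the list was 2.42 corrected and 2.44 as deposited. Lrg1 (2.81 ± 0.13), the lectin-like Chil1 (2.56 ± 0.20), the endotoxin co-receptor Cd14 (2.41 ± 0.18) and the iron carrier Cp (2.06 ± 0.11) were among those that rose. The members that did not pass were Chil3 (-0.72, adjusted p = 0.127) and Bpifa1 (-0.72, adjusted p = 0.312), the latter spread from 91.9 to 442 TPM within PBS alone.

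**Figure D4:**
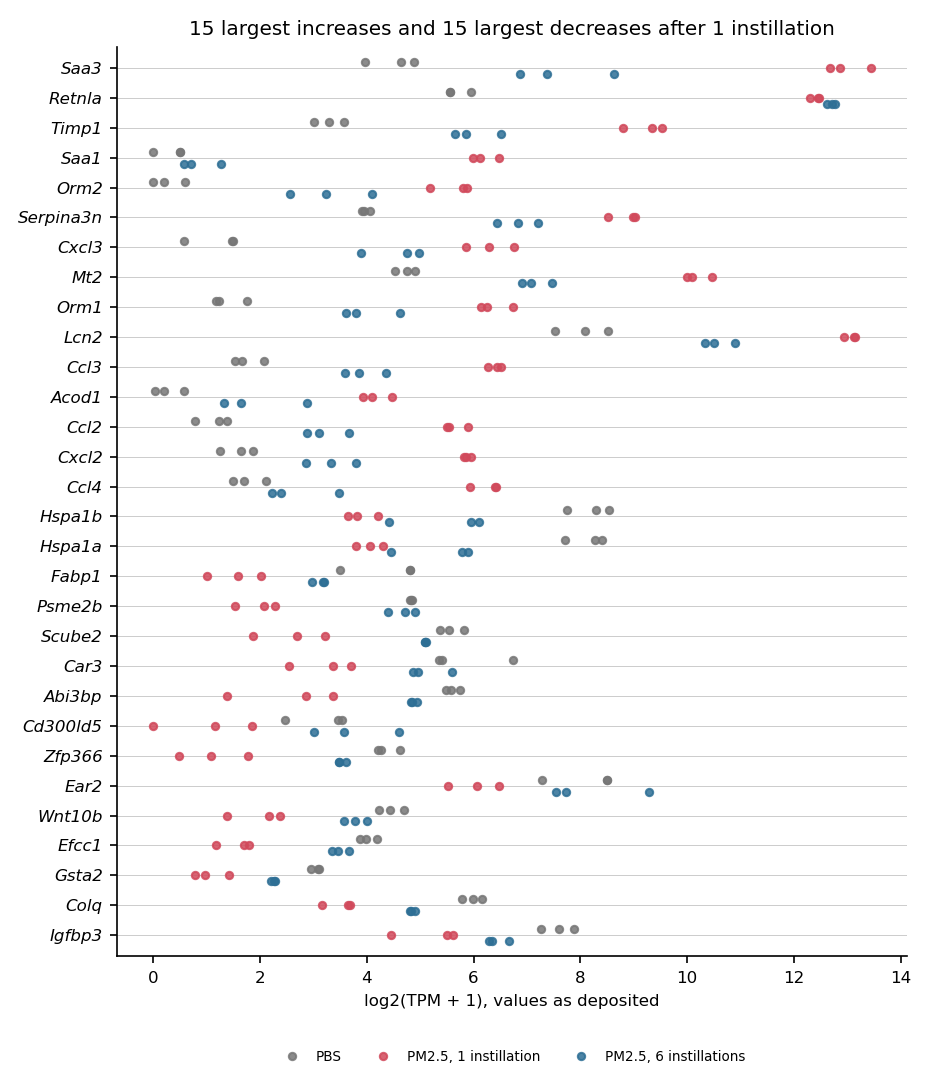
Deposited log2(TPM + 1) of the 15 largest increases and 15 largest decreases after 1 dose (rows), with each point 1 library: grey PBS, red 1 dose, blue 6 doses. Red and grey points do not overlap in any row, as the rule for these genes required, and the blue points lie between them in many rows; for Retnla red and blue points lie together.

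Chemokines that bind Cxcr2 and call neutrophils rose together. Cxcl1 stood at 4.43, 6.41 and 9.83 TPM in PBS and at 94.96, 99.96 and 98.3 TPM after the dose (3.5 ± 0.22, adjusted p = 1.63e-05). Cxcl2 went from 1.37, 2.66 and 2.13 TPM to 56.9, 55.5 and 61.2 TPM (4.16 ± 0.19, adjusted p = 2.61e-06). Cxcl3 went from 0.49, 1.81 and 1.79 TPM to 77.0, 56.8 and 106 TPM (4.95 ± 0.33, adjusted p = 2.29e-05). All 3 genes lie in the chemokine cluster of chromosome 5. Their upstream sequences are printed because these genes moved together and are textbook targets of NF-kB. The lines give the 250 bases before each start in RefSeq (GRCm38.p6, plus strand), at chr5:90890995-90891244, chr5:90903649-90903898 and chr5:90785851-90786100, with matches on either strand to an NF-kB site, GGG and TTTCC with any 2 bases between, in capitals.
Cxcl1: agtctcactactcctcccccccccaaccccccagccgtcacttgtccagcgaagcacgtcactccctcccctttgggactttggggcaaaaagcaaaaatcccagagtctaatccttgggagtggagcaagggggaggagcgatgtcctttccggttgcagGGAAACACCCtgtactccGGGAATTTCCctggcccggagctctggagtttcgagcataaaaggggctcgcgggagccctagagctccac
Cxcl2: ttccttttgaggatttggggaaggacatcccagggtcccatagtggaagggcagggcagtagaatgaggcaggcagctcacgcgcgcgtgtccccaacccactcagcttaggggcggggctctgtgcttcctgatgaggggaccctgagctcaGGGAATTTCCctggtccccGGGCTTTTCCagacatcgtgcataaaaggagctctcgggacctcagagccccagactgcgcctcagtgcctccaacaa
Cxcl3: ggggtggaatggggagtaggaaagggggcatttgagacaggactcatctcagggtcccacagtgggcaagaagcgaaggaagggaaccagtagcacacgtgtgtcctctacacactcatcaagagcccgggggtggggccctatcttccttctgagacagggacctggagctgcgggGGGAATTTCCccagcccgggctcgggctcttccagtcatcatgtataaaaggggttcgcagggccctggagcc
The matches began 89 and 71 bases before the start in Cxcl1, 97 and 78 bases before it in Cxcl2 and 73 bases before it in Cxcl3. These letters occurred in 1.4% of 27025 promoters of the same length, in 3 of the 7 promoters found for the neutrophil chemokine list, and in 2 of 14 for the monocyte and lymphocyte chemokines. A match describes the letters only.

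Csf3, the growth factor that releases neutrophils from marrow, was at 0, 0.06 and 0.06 TPM in PBS and at 5.75, 6.47 and 5.04 TPM after the dose (2.52 ± 0.13, adjusted p = 6.37e-06). The receptor Cxcr2, carried by neutrophils, rose by 1.70 ± 0.15. Of 9 tested genes of this list, 8 rose in both fits; the exception, the platelet chemokine Ppbp, was lower in the corrected fit (-0.91, adjusted p = 0.0351) and did not pass as deposited (adjusted p = 0.128). The 9 genes had a median change of 2.17.

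Chemokines for monocytes and lymphocytes rose by similar amounts. Ccl2, the main ligand of the monocyte receptor Ccr2, went from 0.73, 1.61 and 1.35 TPM to 45.5, 58.6 and 44.4 TPM (4.25 ± 0.15, adjusted p = 8.76e-07). Ccl3 went from 1.91, 2.16 and 3.19 TPM to 89.9, 75.8 and 86.2 TPM (4.37 ± 0.18, adjusted p = 1.43e-06), and Ccl4, a close relative, changed by 4.13 ± 0.17. Ccl7, Ccl12 and Ccl9 rose by 3.92, 3.31 and 3.54. Of 20 tested genes, 17 were higher in the corrected fit and 16 rose in both, with 0 lower and a median of 2.54. Ccl5 (-0.30, adjusted p = 0.216) and Ccl20 (-0.07, adjusted p = 0.900), which attract lymphocytes, did not pass. The interferon-induced Cxcl10 and Cxcl9 rose by 3.01 ± 0.29 and 1.61 ± 0.18.

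Among cytokine genes, Il6 stood at 0, 0.07 and 0.14 TPM in PBS and at 5.25, 10.4 and 7.76 TPM after the dose (2.82 ± 0.12, adjusted p = 2.24e-06). Tnf went from 1.08, 1.86 and 1.18 TPM to 16.6, 12.5 and 11.9 TPM (2.56 ± 0.20, adjusted p = 4.71e-05). Il1b went from 17.8, 21.6 and 31.2 TPM to 87.0, 124 and 111 TPM (2.13 ± 0.17, adjusted p = 5.71e-05). All 3 dosed libraries exceeded all 3 PBS libraries for each of these cytokines, as they did for 14.6% of all genes as deposited. The brakes on interleukin 1 rose as well, the receptor antagonist Il1rn by 3.54 ± 0.14 and the decoy receptor Il1r2 by 3.16 ± 0.21. Feedback genes of NF-kB and STAT3 signalling rose too, with Socs3 at 1.89 ± 0.14, Nfkb2 at 1.29 ± 0.16, Zc3h12a at 1.01 ± 0.09 and Nfkbia at 0.47 ± 0.10. Il1a gave 0.13 (adjusted p = 0.688) and Nfkbiz 0.34 (adjusted p = 0.153). Of 22 tested genes, 19 were higher in the corrected fit and 15 rose in both, with a median of 0.97; Il18 was lower in the corrected fit (-1.03, adjusted p = 0.00451) and did not pass as deposited (adjusted p = 0.0788). Acod1, which makes the macrophage metabolite itaconate, went from 0.03, 0.15 and 0.50 TPM to 16.2, 21.3 and 14.2 TPM (4.27 ± 0.19).

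Markers of neutrophils rose with these ligands, and markers of other white cells did so unevenly. In a bulk tissue, fewer cells of a type and less RNA per cell cannot be told apart. S100a8, an abundant neutrophil protein, went from 70.2, 88.6 and 143 TPM to 293, 522 and 379 TPM (1.60 ± 0.25, adjusted p = 0.00123), and Csf3r from 36.5, 35.7 and 59.5 TPM to 89.7, 92.8 and 104 TPM (1.48 ± 0.18, adjusted p = 0.000432). Of 20 tested neutrophil genes, 16 were higher in the corrected fit and 12 rose in both, with a median of 1.16. The lectins Clec4e (2.93 ± 0.11) and Clec4d (2.54 ± 0.15), which macrophages also carry, and the receptor Trem1 (2.26 ± 0.17) rose. The summed level of the list was 674 to 1043 TPM in PBS and 9595 to 10360 TPM after the dose, most of it Lcn2, which epithelium also makes. Of the granule genes, Ngp was lower in the corrected fit (-0.87, adjusted p = 0.0403) without passing as deposited, and Camp gave -0.30 (adjusted p = 0.261). The formyl peptide receptor Fpr1 was also lower in the corrected fit alone (-0.66, adjusted p = 0.00723). Ly6g, the surface marker that defines mouse neutrophils, gave 0.37 (adjusted p = 0.0621) and passed only as deposited.

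Siglecf, a receptor of alveolar macrophages and eosinophils, stood at 8.14, 9.22 and 7.91 TPM in PBS and at 1.69, 5.22 and 3.56 TPM after the dose (-0.90 ± 0.17, adjusted p = 0.00319). Ear2 and Ear1, ribonucleases of alveolar macrophages and eosinophils, fell by 2.38 and 1.86 on the log2 scale; they are close copies and Ear2 varied from 154 to 363 TPM within PBS. Among 19 tested alveolar macrophage genes, 5 fell in both fits, where 18.1% of all genes fell, and 1 rose, Ctsk (1.76 ± 0.17). In the corrected fit 4 were higher, a share close to the 21.0% of all genes. Marco (0.85, adjusted p = 0.0727) and Chil3 (adjusted p = 0.127) did not pass. Pparg, which directs alveolar macrophage identity, was lower in the corrected fit (-0.31, adjusted p = 0.0414) and did not pass as deposited (adjusted p = 0.0885).

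Lipid and lysosome genes of activated macrophages mostly rose. Gpnmb went from 6.41, 4.50 and 5.25 TPM to 14.9, 24.7 and 24.9 TPM (2.33 ± 0.13, adjusted p = 6.77e-06). Ctsb, a lysosomal protease, went from 357, 389 and 374 TPM to 699, 856 and 774 TPM (1.75 ± 0.14, adjusted p = 5.67e-05). Lgals3, Cd63 and Npc2 rose by 1.35, 1.31 and 1.21. Of 23 tested genes, 13 rose in both fits and 2 fell, Apoe (-0.84 ± 0.13) and Lamp1 (-0.31 ± 0.10). Apoe lost its call when libraries were scaled by median ratios without correction (-0.31, adjusted p = 0.431).

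Monocyte and interstitial macrophage genes split. Vcan, made by classical monocytes, went from 0.66, 0.89 and 1.05 TPM to 1.62, 4.79 and 2.86 TPM (1.93 ± 0.13), and the complement genes C1qa, C1qb and C1qc rose by 0.66 to 0.77. Of 22 tested genes 13 were higher in the corrected fit and 7 rose in both, while 3 fell; without PBS replicate 1 the corrected count was 8 higher and 2 lower. Of 14 dendritic cell genes 6 rose, among them Batf3 (1.23 ± 0.14) and Fscn1 (1.30 ± 0.14), and Zbtb46, also carried by endothelium, fell by 0.75. Of 18 tested T and NK cell genes 0 passed in both fits (limma), and 2 (Cd3d and Il7r) passed in the corrected fit alone. Without PBS replicate 1 that fit called 0 (0 higher and 0 lower), and without PBS replicate 2 it called 0 higher and 2 lower. Of 13 B and plasma cell genes only the low-affinity IgE receptor Fcer2a rose (0.89 ± 0.15). Of 10 tested eosinophil, basophil and mast cell genes 2 fell in both fits, Siglecf and Gata2, and 0 rose. That is close to the 18.1% of all genes that fell. Gata2, which endothelium also expresses, lost its corrected call without PBS replicate 1 (adjusted p = 0.0786) and without PBS replicate 2 (adjusted p = 0.0870).

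**Figure D5:**
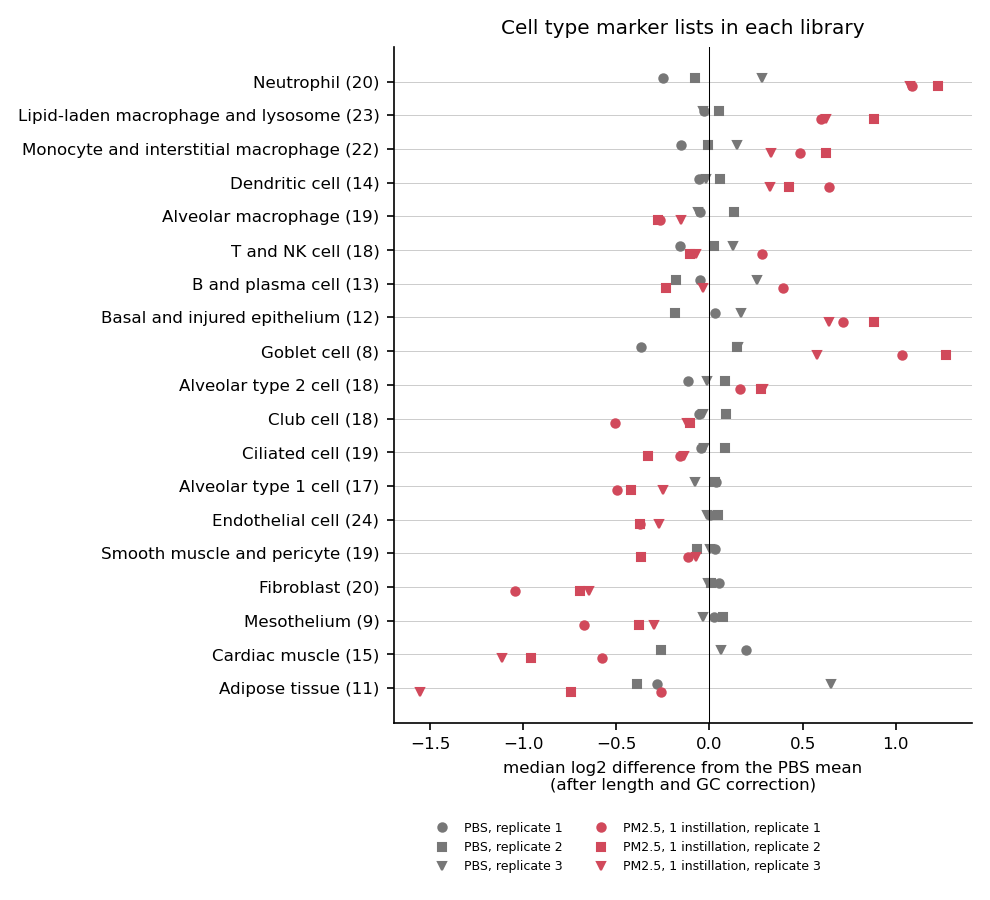
Median difference from the PBS mean over the tested genes of each cell type list (number in parentheses), in each of the 6 libraries, on the corrected log2 scale. Grey symbols are PBS and red symbols 1 dose; all 3 red symbols lie between 1.08 and 1.23 for neutrophil genes and between -1.05 and -0.65 for fibroblast genes, and adipose genes scatter from -1.55 to 0.65 across single libraries of both groups.

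In the list of type 2 response genes, Retnla changed most. Retnla, a secreted resistin-like protein, stood at 45.9, 60.7 and 46.1 TPM in PBS and at 5017, 5672 and 5575 TPM after the dose (6.37 ± 0.13, adjusted p = 2.02e-08). The 3 libraries of each group were tightly grouped, with a standard deviation of 353 TPM around a mean of 5421 TPM after the dose. Retnlb, its epithelial relative, was at 1.72, 2.17 and 1.74 TPM after the dose and listed at 0 in each PBS library. The Ccr4 ligand Ccl17 went from 2.88, 3.12 and 3.73 TPM to 47.3, 57.9 and 32.2 TPM (2.93 ± 0.18, adjusted p = 1.23e-05). Ccl24 and Ccl11, which attract eosinophils, rose by 2.41 ± 0.33 and 1.53 ± 0.30. Arg1 went from 1.65, 1.55 and 1.77 TPM to 5.33, 20.8 and 4.13 TPM, with replicate 2 well above the others. Il4, Il5 and Il13 themselves were below the filter on low values. Of 17 tested genes 6 rose and 3 fell (Tslp, Gata3 and Postn), where 7.43% of all genes rose and 18.1% fell. The falling share was close to that of all genes.

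Both metallothionein genes on the metal list, Mt1 and Mt2, rose; their products hold metal ions such as zinc. Mt2 stood at 22.2, 28.8 and 26.1 TPM in PBS and at 1083, 1408 and 1016 TPM after the dose (4.89 ± 0.19, adjusted p = 1.33e-06). Mt1 went from 149, 141 and 159 TPM to 1591, 1775 and 1523 TPM (2.90 ± 0.16, adjusted p = 6.77e-06). In PBS Mt1 stood above Mt2 in every library. Zinc importers rose as well: Slc39a14 by 1.69 ± 0.12, Slc39a4 by 1.42 ± 0.11 and Slc39a1 by 1.02 ± 0.09. The zinc exporter Slc30a1 and the importer Slc39a10 fell (-0.35 and -0.40), calls that were lost with correction for length alone and without PBS replicate 3. Of 14 tested genes of the metal list 5 rose and 2 fell in both fits, with a median of 0.29. The metal-sensing factor Mtf1 gave 0.19 (adjusted p = 0.174) and the iron hormone Hamp -0.41 (adjusted p = 0.1).

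The study's title names Nrf2, and its targets went in both directions. Hmox1, which breaks down haem, went from 37.0, 44.8 and 42.7 TPM to 172, 149 and 142 TPM (1.78 ± 0.14, adjusted p = 4.47e-05). Slc7a11, the cystine importer for glutathione synthesis, went from 0.43, 0.38 and 0.52 TPM to 1.39, 3.0 and 1.88 TPM (2.08 ± 0.16, adjusted p = 4.41e-05). Gpx2 and Prdx1, which reduce peroxides, rose by 1.45 ± 0.16 and 0.93 ± 0.10. The ferritin chain Fth1 rose by 0.53 ± 0.12. Of the glutathione transferases on the list, Gsta2, Gstm1 and Gsta3 fell, with Gsta2 at 7.60, 6.72 and 7.46 TPM in PBS and 0.72, 1.67 and 0.95 TPM after the dose (-2.23 ± 0.12, adjusted p = 6.37e-06), Gstm1 at -1.26 ± 0.13 and Gsta3 at -0.97 ± 0.17. Nfe2l2 itself was 111, 122 and 107 TPM in PBS and 45.3, 97.1 and 76.8 TPM after the dose. It was lower in the corrected fit (-0.49 ± 0.12, adjusted p = 0.00913) and narrowly did not pass as deposited (-0.69, adjusted p = 0.0530).

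Unlike Hmox1 and Slc7a11, the Nrf2 targets Nqo1, Gclc and Gclm did not pass, nor did the inhibitor gene Keap1. Nqo1 gave -0.14 ± 0.11 (adjusted p = 0.348), Keap1 0.09 ± 0.09 (adjusted p = 0.453), and the 2 chains of glutamate-cysteine ligase, Gclc and Gclm, 0.14 (adjusted p = 0.444) and -0.24 (adjusted p = 0.113). For Gclm the result turned on the correction, since it was lower as deposited (-1.08, adjusted p = 0.00606). Of 30 tested genes 8 rose in both fits and 5 fell, where 7.43% of all genes rose and 18.1% fell. The share that fell was thus close to that of all genes. The median of the list was 0.18 corrected and 0.10 as deposited.

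Aryl hydrocarbon receptor targets went in different directions. Cyp1a1, the standard reporter of that receptor, was 31.1, 34.0 and 24.3 TPM in PBS and 14.95, 32.7 and 19.1 TPM after the dose, a difference that did not pass (-0.12 ± 0.17, adjusted p = 0.586). Cyp1b1 went from 1.33, 1.87 and 1.93 TPM to 4.08, 8.76 and 6.96 TPM (2.10 ± 0.13, adjusted p = 1.14e-05). The receptor gene Ahr fell by 0.67, Aldh3a1 by 0.82 and Cyp2s1 by 0.66. Of 8 tested genes 1 rose and 3 fell in both fits. Among enzymes that make oxidants, the phagocyte oxidase subunits Ncf4 (1.17 ± 0.15) and Cyba (0.97 ± 0.11) rose and Nox4, the oxidase of stromal cells, fell (-0.89 ± 0.13). The inducible nitric oxide synthase Nos2 gave 0.38 (adjusted p = 0.122).

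The largest decreases were in the inducible Hsp70 genes. Hspa1b stood at 312, 371 and 215 TPM in PBS and at 11.6, 13.02 and 17.4 TPM after the dose (-4.06 ± 0.22, adjusted p = 6.77e-06). Hspa1a stood at 307, 336 and 209 TPM and at 15.6, 12.9 and 18.6 TPM (-3.80 ± 0.21, adjusted p = 6.77e-06). PBS replicate 3 was the lowest of its group for both and still far above every dosed library. The pair lie beside each other on chromosome 17 and are near-identical, so reads may be split between them in either way. Their promoters show how alike the copies are. Printed are the 250 bases before each start from RefSeq (GRCm38.p6, minus strand), at chr17:34972157-34972406 and chr17:34959239-34959488, with the core GAANNTTC of a heat shock element in capitals.
Hspa1a: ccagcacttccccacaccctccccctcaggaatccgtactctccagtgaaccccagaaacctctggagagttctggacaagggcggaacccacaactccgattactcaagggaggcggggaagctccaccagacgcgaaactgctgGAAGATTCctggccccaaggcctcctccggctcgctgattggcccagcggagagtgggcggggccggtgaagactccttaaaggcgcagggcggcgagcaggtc
Hspa1b: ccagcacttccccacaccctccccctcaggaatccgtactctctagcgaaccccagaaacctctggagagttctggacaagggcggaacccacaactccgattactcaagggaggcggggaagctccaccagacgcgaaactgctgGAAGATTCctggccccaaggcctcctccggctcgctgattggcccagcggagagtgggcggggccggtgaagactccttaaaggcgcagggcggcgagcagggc
Of the 250 bases, 3 differed between the copies, and the core began 104 bases before the start in each. Searched on both strands, GAANNTTC occurred in 6.8% of 27025 promoters and in 5 of 15 found for the heat shock list.

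Other chaperones moved less. The co-chaperones Dnajb1 (-1.11 ± 0.11) and Bag3 (-0.73 ± 0.09) and the small heat shock protein Hspb1 (-1.06 ± 0.14) fell. The constitutive Hspa8 (-0.09, adjusted p = 0.672) and Hsp90ab1 (-0.03, adjusted p = 0.890) did not pass. Of 20 tested genes 8 fell in both fits and 0 rose, where 18.1% of all genes fell. The heat shock factor Hsf1 gave -0.10 (adjusted p = 0.590). Chaperones of the endoplasmic reticulum ran the other way: Manf went from 179, 179 and 185 TPM to 494, 408 and 376 TPM (1.43 ± 0.18), and Sdf2l1, Pdia6 and Calr rose by 1.22, 1.15 and 0.95. Of 24 genes of the unfolded protein response 16 were higher and 3 lower in the corrected fit, and 6 were higher and 2 lower as deposited. In both fits 6 rose and 1 fell, where 7.43% of all genes rose and 18.1% fell. The stress factors Ddit3 and Atf4 were not among those that rose.

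Among immediate early genes Fosl1 (1.39 ± 0.13), Egr2 (1.41 ± 0.14) and Junb (1.26 ± 0.22) rose, while Klf4 (-1.86 ± 0.27), Nr4a2 (-1.11 ± 0.11) and Jun (-1.05 ± 0.13) fell. Fos (0.25, adjusted p = 0.319) and Atf3 (0.17, adjusted p = 0.433) did not pass. Of 25 tested genes 7 rose and 5 fell, the latter a share close to the 18.1% of all genes that fell, while 7.43% of all genes rose. Glucocorticoid-induced genes set short-term replicate 2 apart: Fkbp5 stood at 5.36, 32.3 and 10.5 TPM and Zbtb16 at 1.05, 25.8 and 5.39 TPM in the dosed libraries, against 4.36 to 5.44 TPM and 7.13 to 14.1 TPM in PBS. Of 14 genes of that list 3 rose and 2 fell. In the corrected fit 4 were higher and 2 lower, and without that replicate 4 were higher and 4 lower. In the clock list Cry1 (-1.28 ± 0.16) and Arntl (-0.97 ± 0.13) fell and Bhlhe40 rose (1.13 ± 0.09), 1 rising and 6 falling of 19 tested.

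Cell cycle genes were higher in the corrected fit, and fewer of them passed as deposited. Uhrf1, which maintains DNA methylation in S phase, went from 2.05, 2.31 and 1.73 TPM to 8.94, 13.8 and 10.7 TPM (2.36 ± 0.12, adjusted p = 5.36e-06). The replicative helicase gene Mcm5 went from 7.14, 7.25 and 7.49 TPM to 23.3, 24.8 and 19.9 TPM (1.90 ± 0.15, adjusted p = 4.51e-05). Mcm7, Mcm3 and Mcm2 rose by 1.36, 1.34 and 1.21. Genes of mitosis were at low levels: Plk1 rose from a range of 2.18 to 2.55 TPM to one of 4.25 to 4.87 TPM, and Mki67, which passed only in the corrected fit, was 2.30 to 4.31 TPM after the dose against 3.22 to 3.91 TPM in PBS. Of 27 tested genes 25 were higher in the corrected fit and 12 in both, with 0 lower; the median was 0.94 corrected and 0.52 as deposited. Ccnb2 (adjusted p = 0.581) and Aurka (adjusted p = 0.0621) did not pass. Replication-dependent histones, whose mRNA lacks a poly(A) tail and is poorly captured by oligo(dT), included 4 of 9 tested that fell. Among p53 targets Cdkn1a (0.79 ± 0.19) and Bax (0.35 ± 0.11) rose and Perp, Bbc3 and Mdm2 fell, of 19 tested. The corrected fit called 7 of that list higher and 4 lower, and without PBS replicate 1 it called 3 higher and 2 lower. Bbc3 lost its call under median-ratio scaling (adjusted p = 0.256) and quantile normalization (adjusted p = 0.138).

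Complement genes mostly rose or did not pass. C3, the central component, went from 259, 269 and 269 TPM to 884, 1080 and 910 TPM (2.47 ± 0.12, adjusted p = 3.09e-06). Cfb, which forms the alternative pathway convertase with it, went from 24.9, 33.2 and 34.6 TPM to 152, 182 and 149 TPM (2.61 ± 0.14, adjusted p = 6.77e-06). The anaphylatoxin receptor C5ar1 rose by 1.45 ± 0.14. Hc, the gene for C5, fell from 112, 117 and 139 TPM to 16.2, 52.0 and 31.5 TPM (-1.19 ± 0.16, adjusted p = 0.000624). Coagulation factors F10 and F7 rose by 1.90 and 0.91, and thrombomodulin (Thbd), an anticoagulant on endothelium, fell by 1.36 on the log2 scale. Of 28 tested complement and coagulation genes 12 rose and 3 fell in both fits. The corrected fit called 17 higher and 4 lower, and 2 lower without PBS replicate 1 or 3.

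Interferon-induced genes gave smaller and less even changes. Zbp1 went from 9.85, 6.62 and 12.7 TPM to 57.5, 39.9 and 26.4 TPM (1.81 ± 0.28, adjusted p = 0.00131), and Isg15 from 21.1, 19.8 and 29.2 TPM to 111, 79.9 and 39.2 TPM (1.15 ± 0.30, adjusted p = 0.0134). Replicate 1 was the highest and replicate 3 the lowest of the dosed libraries for both. Gbp4 (-0.62) and Irf1 (-0.44) fell. Of 28 tested genes 8 rose and 2 fell in both fits. Antigen presentation genes rose in 8 of 20 tested (11 in the corrected fit, and 7 there without PBS replicate 1), among them Cd80 (1.29 ± 0.16), H2-DMa (0.76 ± 0.14) and Cd74 (0.44 ± 0.12), and the class I genes H2-K1 (0.00, adjusted p = 0.998) and B2m (-0.16, adjusted p = 0.292) did not pass. In the eicosanoid pathway Ptges, the prostaglandin E synthase, rose by 1.41 ± 0.13 and Ptgs1 by 1.05 ± 0.09, while Ptgs2 was higher only in the corrected fit (0.32, adjusted p = 0.0466) and Ltc4s fell (-1.18 ± 0.12). The call on Ltc4s was lost under median-ratio scaling without correction (-0.33, adjusted p = 0.189) and under quantile normalization (-0.31, adjusted p = 0.207).

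Among genes that remodel matrix, an inhibitor of proteases changed most. Timp1, an inhibitor of metalloproteinases, stood at 7.05, 10.9 and 8.74 TPM in PBS and at 740, 648 and 443 TPM after the dose (5.56 ± 0.20, adjusted p = 8.76e-07). Mmp3 went from 6.64, 8.02 and 7.33 TPM to 22.5, 37.6 and 29.0 TPM (2.01 ± 0.10, adjusted p = 3.39e-06), and Mmp12, the macrophage elastase, from 4.82, 5.43 and 4.87 TPM to 10.96, 26.5 and 13.2 TPM (1.85 ± 0.14). Mmp19, Mmp8 and Mmp9 rose by 1.56, 1.23 and 1.01. Mmp28 (-1.37), Mmp15 (-0.65) and Timp2 (-0.52) fell. In all 7 of 15 rose and 5 fell.

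Collagen genes depended on the correction. Col1a1 was 131, 120 and 138 TPM in PBS and 162, 137 and 154 TPM after the dose, which gave 0.91 ± 0.12 corrected (adjusted p = 0.000620) and 0.22 as deposited (adjusted p = 0.195). The dosed libraries lay only just above or within the PBS range before correction. Col3a1 (0.43, adjusted p = 0.0630) and Col1a2 (0.29, adjusted p = 0.128) did not pass. The basement membrane chain Col4a3 went from 62.7, 64.8 and 53.7 TPM to 3.56, 18.4 and 13.5 TPM (-1.58 ± 0.30, adjusted p = 0.00319), and Col4a5 fell by 1.64 on the log2 scale. Of 19 tested collagens 0 rose and 6 fell in both fits, where 7.43% of all genes rose and 18.1% fell. Calls in both fits thus ran downwards more often than upwards over all genes too. The median of the list was 0.12 corrected and -0.62 as deposited, so it changed sign with the correction. The corrected fit called 3 higher and 6 lower, correction for length alone 6 and 5, and the fit without short-term replicate 1 called 8 and 5. Among matrix and TGF-beta genes Acta2, the actin of smooth muscle and myofibroblasts, rose from 128, 115 and 134 TPM to 185, 204 and 191 TPM (0.81 ± 0.12), Tnc rose by 1.51 ± 0.15, and Ccn1 (-0.71), Ccn2 (-0.89) and Postn (-0.95) fell. Tgfb1 (0.31, adjusted p = 0.0541) and Fn1 (0.22, adjusted p = 0.247) did not pass. In this matrix and TGF-beta list of 27, 3 rose and 3 fell, where 7.43% of all genes rose and 18.1% fell.

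Epithelial lists differed from each other. Scgb3a2 and Cyp2f2, a secretoglobin and a cytochrome P450 of club cells, were 802, 1045 and 848 TPM and 2520, 2527 and 2703 TPM in PBS. After the dose they were 267, 448 and 367 TPM (-1.70 ± 0.14) and 534, 967 and 885 TPM (-1.72 ± 0.16). Every dosed library lay below every PBS library, as was so for 46.1% of all genes as deposited. Scgb1a1, the most abundant transcript, made up 14.4% to 18.1% of all TPM in PBS and 10.7% to 12.8% after the dose, and passed only in the corrected fit (-0.86, adjusted p = 0.00575; as deposited, adjusted p = 0.273). Of 18 tested club cell genes 2 rose and 5 fell. The nuclease step in library preparation lowers abundant transcripts, and how far it did so in each library cannot be seen from TPM.

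In alveolar type 2 cell genes, the surfactant collectin Sftpd went from 818, 834 and 1157 TPM to 2570, 2297 and 2730 TPM (1.23 ± 0.15, adjusted p = 0.000400). Sftpc fell from 35226, 35731 and 35355 TPM to 19628, 23239 and 25410 TPM (-1.08 ± 0.17, adjusted p = 0.00150). Sftpb gave -0.12 (adjusted p = 0.478), so 4 of 18 tested genes rose, 2 fell and the surfactant genes did not move together. Alveolar type 1 cell genes fell in 7 of 17, with Clic5 at -0.86 ± 0.14 and the growth factor Vegfa at -1.14 ± 0.14; podoplanin (Pdpn) rose by 0.55 and Ager gave 0.12 (adjusted p = 0.509). The median of that list was -0.40 corrected and -1.07 as deposited.

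Genes of injured or basal epithelium rose in 7 of 12 and fell in 0. Sfn went from 18.1, 16.9 and 23.1 TPM to 81.7, 50.5 and 51.7 TPM (1.52 ± 0.15, adjusted p = 0.000157), and Itgb6, which activates TGF-beta, rose by 1.23 ± 0.12. Krt19 and Krt7 rose by 0.96 and 1.17, and the EGFR ligand Areg by 0.72. Krt5 and Krt14, which define basal cells, were below the filter. Of the goblet cell genes the anion exchanger Slc26a4 went from 0.82, 0.73 and 1.34 TPM to 10.9, 28.8 and 11.98 TPM (3.51 ± 0.23, adjusted p = 1.89e-05). The mucin Muc5b went from 3.01, 4.61 and 6.11 TPM to 7.12, 8.08 and 7.74 TPM (1.54 ± 0.20), and Bpifb1 rose by 1.35 ± 0.26; Muc5ac was below the filter. In all 4 of 8 rose and 0 fell. Ciliated cell genes rose in 0 of 19 and fell in 3 (Tppp3, Rsph4a and Cdhr3), a share near the 18.1% of all genes that fell. Tppp3 lost its call under median-ratio scaling (adjusted p = 0.162), and the ciliary regulator Foxj1 gave 0.02 ± 0.11 (adjusted p = 0.920).

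Most fibroblast genes fell. Itga8, an integrin of alveolar fibroblasts, went from 91.6, 86.7 and 72.8 TPM to 6.81, 23.9 and 15.5 TPM (-1.67 ± 0.15, adjusted p = 0.000108). Inmt went from 4628, 3918 and 4390 TPM to 1476, 1733 and 2034 TPM (-1.62 ± 0.15, adjusted p = 0.000110), and Tcf21, a transcription factor of lung fibroblasts, fell by 1.39 on the log2 scale. Of 20 tested fibroblast genes 16 fell and only Mgp rose (0.50 ± 0.13), where 18.1% of all genes fell. The list's median was -0.74 corrected and -1.13 as deposited, and it was -1.05, -0.70 and -0.65 in short-term replicates 1, 2 and 3. Endothelial genes fell in 10 of 24 and rose in 0, with Cdh5 at -0.56 ± 0.09 and the endothelin receptor Ednrb at -0.79 ± 0.12, while Pecam1 (-0.11, adjusted p = 0.386), Cldn5 (-0.22, adjusted p = 0.117) and Esam (0.09, adjusted p = 0.492) did not pass. Mesothelial genes fell in 5 of 9, including Wt1 (-0.63) and Lrrn4 (-0.87), and Krt19, which other epithelia also express, rose (0.96). The summed level of that list was 598 to 880.0 TPM in PBS and 1001 to 1581 TPM after the dose, most of it Krt19. The corrected fit called 3 lower without PBS replicate 1 or 2. Smooth muscle and pericyte genes split, 3 rising (Acta2, Tagln and Actg2) and 5 falling of 19. The corrected fit called 4 higher and 7 lower, and 2 higher without PBS replicate 2 or 3.

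Some lists mark tissue that can come along with a dissected lung. Cardiac muscle genes, which the walls of pulmonary veins express, fell in 8 of 15, with Csrp3 going from 42.2, 27.7 and 35.5 TPM to 14.3, 11.4 and 12.3 TPM (-1.74 ± 0.15). The summed level of that list was 1036 to 1516 TPM in PBS and 695 to 1010 TPM after the dose. Adipose genes fell in 4 of 11, with a summed level of 169 to 433 TPM in PBS and 112 to 185 TPM after the dose. Adipoq was 6.72, 4.45 and 12.1 TPM in PBS, so PBS replicate 3 stood above the others, and 2.03, 2.02 and 1.18 TPM after the dose. Car3, among the 15 largest decreases (-2.53 ± 0.39), was also highest in PBS replicate 3, at 41.5, 39.6 and 106 TPM in PBS and 9.36, 11.96 and 4.85 TPM after the dose. The part of attached tissue in these changes was not tested. Haemoglobin genes made up 5.0% to 7.53% of TPM in PBS and 3.5% to 6.72% after the dose, and 0 of 8 tested red cell genes passed in both fits (limma; 2 were lower in the corrected fit, and 0 without PBS replicate 2). Of 10 platelet genes Pf4 rose (0.85 ± 0.10) and Tubb1 fell (-0.99 ± 0.23), a call lost under median-ratio scaling (adjusted p = 0.0511) and quantile normalization (adjusted p = 0.0798). The corrected fit called 5 of them lower, and 1 without PBS replicate 1 or 3. Skeletal muscle, nerve and neck-tissue lists held 7, 7 and 3 tested genes, of which 1, 2 and 1 rose and 0, 2 and 0 fell.

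The remaining large decreases were spread over several functions. Fabp1, a liver-type fatty acid carrier, went from 27.04, 10.2 and 27.1 TPM to 1.01, 3.04 and 2.0 TPM (-3.20 ± 0.35). Scube2, a secreted protein that helps release Hedgehog ligands, went from 55.3, 45.2 and 40.6 TPM to 2.65, 8.32 and 5.45 TPM (-2.57 ± 0.20). Igfbp3, a carrier of insulin-like growth factors, went from 234, 153 and 193 TPM to 21.0, 48.2 and 44.2 TPM (-2.18 ± 0.22). Colq, the collagen tail that anchors acetylcholinesterase, went from 69.9, 62.1 and 54.2 TPM to 7.96, 11.6 and 11.9 TPM (-2.22 ± 0.13), and the ligand Wnt10b changed by -2.35 ± 0.23. Abi3bp, Zfp366 and Efcc1 fell by 2.5, 2.42 and 2.28 on the log2 scale. Psme2b (-3.15 ± 0.17) and Cd300ld5 (-2.48 ± 0.47) also fell, but each has close copies elsewhere in the genome, so their values are uncertain. In short-term replicate 1 the levels of Scube2, Abi3bp, Zfp366, Wnt10b, Efcc1, Colq and Igfbp3 were the lowest of the 3 dosed libraries.

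The ribosomal protein and oxidative phosphorylation lists had medians closer to 0 after correction than as deposited. Of 35 ribosomal protein genes 7 rose in both fits with a median of 0.11, against 0.47 as deposited, and Rps2 was among them (0.95 ± 0.12). The corrected fit called the same number, 7, a share near the 21.0% of all genes, and 4 without PBS replicate 1 or 2. Of 36 nuclear genes of oxidative phosphorylation 8 rose, among them Sdhc (1.11 ± 0.13) and Uqcrq (0.99 ± 0.15), and the corrected fit called 10 higher, or 3 or 4 with any PBS library left out. In cholesterol and fatty acid synthesis 13 of 24 were higher in the corrected fit and 4 rose in both (Fdps, Fdft1, Mvd and Mvk), with a median that reversed from 0.39 corrected to -0.27 as deposited. The 13 became 8 without PBS replicate 3 or without short-term replicate 3.

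Lungs dosed once and lungs dosed 6 times were compared directly in a fit of all 9 libraries, which called 2641 of 13801 genes higher after 6 doses (19.1%) and 3100 lower (22.5%), 41.6% in all. The inflammatory genes were mostly higher after 1 dose. Saa3 averaged 8349 ± 2406 TPM (SD, n = 3) after 1 dose and 225 TPM after 6, a difference of -5.15 (6 doses minus 1, adjusted p = 1.17e-05). Saa1 averaged 72.9 and 0.85 TPM (-5.15, adjusted p = 1.30e-07), and Timp1 610.2 and 65.5 TPM (-3.10, adjusted p = 1.18e-05). Il6 was 1.23, 0.64 and 0.28 TPM after 6 doses (-2.43 against 1 dose, adjusted p = 5.89e-06), and Csf3 was 0.18, 0 and 0.06 TPM. Of the tested acute phase genes 16 were lower after 6 doses than after 1 and 3 were higher. Of the neutrophil chemokines 8 were lower and 0 higher, and of the monocyte and lymphocyte chemokines 15 were lower and 1 higher. Genes of the unfolded protein response were lower after 6 doses in 18 of 24 and higher in 0.

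Among the 15 largest increases, which were chosen for being high in these same single-dose libraries, Retnla was higher after 6 doses. It stood at 5421 TPM after 1 dose and 6663 TPM after 6 (0.38 higher after 6, adjusted p = 0.0194). Many macrophage genes were higher after 6 doses. Mmp12 was 201, 272 and 218 TPM after 6 doses, 3.26 above 1 dose on the log2 scale (adjusted p = 1.42e-06), Trem2 was 1.96 above it, and Chil3, which did not pass after 1 dose, was 3.22 above it (adjusted p = 0.000100). Of the alveolar macrophage genes 16 of 19 were higher after 6 doses than after 1 and 0 were lower. Ciliated cell genes were higher after 6 doses in 18 of 19, with Foxj1 at 252.5 TPM against 76.9 TPM and Ccno 2.37 above 1 dose. Fibroblast genes were higher after 6 doses in 14 of 20 and lower in 0. In the cell cycle list the direction depended on the gene: Mcm5 was lower after 6 doses (-1.34, adjusted p = 7.19e-05) and Ccnb2 higher (1.32, adjusted p = 0.000131), with 8 higher and 11 lower in all. This comparison carries the same difference in length trend between libraries, since the 6-dose libraries were nearly level.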

How the data were processed

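Lung RNA was captured with oligo(dT), treated with a duplex-specific nuclease, which lowers abundant transcripts, and sequenced on a DNBSEQ instrument, per the labels' protocols. The authors deposited TPM values for 18875 genes. The submitters' processing notes name HISAT2, Bowtie2, RSEM and DESeq2 without roles or versions, and the build GRCm38.p6. Read depth cannot be recovered from TPM, so no counting interval is given.

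Values were tested as log2(TPM + 1) on genes at 1 TPM or more in at least 3 of the 6 libraries. From each library's difference from the mean of the libraries, natural splines with 5 degrees of freedom in log2 transcript length (GENCODE vM21) and in GC content were subtracted. An intercept fitted with them was subtracted too. This also removes any real change that runs with length and any real shift in a library's mean. Of the 13615 genes, 166 had no length. Tests used limma 3.58.1 in R 4.3.3 with an intensity trend, 4 residual degrees of freedom and Benjamini-Hochberg adjustment at 0.05. An exact rank test of 3 against 3 cannot go below p = 0.1. The scripts were tested on simulated data with 200 of 13449 genes changed. With the length trend added, 10.1% of calls were false after correction, above the threshold of 0.05, and 90.8% without it. The corrected fit then recovered 88.0% of changes of 1 and 90.0% of changes of 2 on the log2 scale. The added trend was the one this same correction had fitted to the real libraries, so its removal was largely built in. Genes of low expression went mainly to changes of 2, so recovery of the 2 sizes cannot be compared. Rises and falls were equal in number, and 200 genes changed, where the corrected fit of the real data called 44.2% of genes. With no trend added, 6.28% of corrected calls were false and 97.0% of changes of 2 were recovered. Promoters and positions came from RefSeq GRCm38.p6.

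Genes and 52 lists were chosen with earlier results of these data known. The rule for named genes took the 15 largest increases and 15 largest decreases that passed in both fits, did not overlap in TPM and reached a mean of 5 TPM in either group. It added up to 3 members of each list with the smallest p and a fixed panel of stress and cytokine genes. Other list members are examples chosen after their values were seen.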

Additional observations from a re-analysis of the deposited data

Results flagged for a closer look

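Among the 159 named genes, 6 passed the test both for 1 dose against PBS and for 6 doses against PBS with opposite signs, and also passed the direct test of 6 doses against 1 (limma, Benjamini-Hochberg adjusted p). Genes that passed for 1 of the 2 doses only are not counted. Both changes are measured against the same PBS libraries. Each of the 6 was lower after 1 dose and higher after 6, on the corrected log2 scale. Siglecf averaged 8.42 TPM in PBS, 3.49 TPM after 1 dose and 17.8 TPM after 6, and 6 doses exceeded 1 by 1.75 (adjusted p = 3.46e-05). Hc, the gene for complement C5, averaged 123, 33.2 and 182.0 TPM in the same order, with a difference of 1.74 (adjusted p = 4.12e-05). Ltc4s, which makes leukotriene C4, averaged 27.6, 17.3 and 42.8 TPM, with a difference of 1.66 (adjusted p = 9.32e-06). The ciliary genes Rsph4a and Cdhr3 differed by 1.42 (adjusted p = 1.48e-05) and 1.33 (adjusted p = 0.000131). Perp, a p53 target of cell junctions, averaged 16.3, 8.87 and 28.2 TPM, with a difference of 1.25 (adjusted p = 5.69e-05).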

How the results depend on the processing

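The number of genes higher, short-term PM2.5 against PBS, was 2827 in the corrected fit, 1260 as deposited and 856 when the correction kept each library's mean, and the share of lower genes among the calls was then 77.2% and 84%. For genes lower, short-term PM2.5 against PBS, it was 3115. Of the 2827 higher and 3115 lower genes, 999 and 2431 kept their call as deposited. With 1 library left out at a time the count ranged from 1946 to 2932 higher and from 2063 to 3206 lower, and the lowest count of lower genes, 2063, came without PBS replicate 1. The number of genes changed, long-term against short-term PM2.5, was 5741, 7061 as deposited and 4269 to 6292 with 1 library left out. Of 154 called named genes, 138 kept direction and call in all 15 alternatives run for them. In all 6 fits with 1 library left out 152 kept them, and Gata2 and Ndufv2 did not. Apart from the fixed panel, named genes were chosen for passing in both fits, so their call as deposited was set by that choice. The alternative that kept each library's mean was not among the 15. TPM values hold no read depth, so how far depth limits the low genes is unknown.

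The main fit did not use the replicate numbers to pair the samples. Deviations of same-numbered libraries correlated at -0.0239, 0.0857 and -0.131 across genes after correction, and at 0.0243, 0.277 and -0.147 as deposited. Deviations within a group depend on each other, so these values cannot decide whether samples were paired. With the number as a block, genes higher, short-term PM2.5 against PBS, and genes lower, short-term PM2.5 against PBS, were 2687 and 2976 in the corrected fit and 1177 and 4194 as deposited.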
